A study of Homo sapiens with 4 samples.

Results

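Transcript levels of 10 genes that carry the transforming growth factor beta (TGF-beta) signal were examined in PANC-1 cells after knockdown of SIRT1, an NAD-dependent protein deacetylase. The genes were found by symbol among the 16878 genes of each library, and all 10 were listed. They are the ligand genes TGFB1, TGFB2 and INHBA, the receptor genes TGFBR1, TGFBR2 and TGFBR3, the signal transducer genes SMAD2, SMAD3 and SMAD4, and TGFBI, a gene known to be induced by the pathway. PANC-1 is an established human line of pancreatic ductal carcinoma, and a line stands for tumor cells grown without their stroma. The Control group held 2 libraries, and the knockdown group (siSIRT1) held 2 libraries from cells given small interfering RNA to SIRT1, all taken 48 h after transfection. The labels do not name the reagent given to the Control cells, and they do not say whether the libraries of a group came from separate cultures, so the p-values measure the spread between these libraries, which may be technical.

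TGF-beta ligands are secreted in a latent form and are set free outside the cell. The active ligand binds the type II receptor, which recruits and phosphorylates the type I receptor. The type I receptor then phosphorylates SMAD2 and SMAD3, which join SMAD4, enter the nucleus and regulate genes for extracellular matrix, the cytoskeleton and the cell cycle. In the pancreas the pathway is known to restrain the growth of epithelial cells early in tumor development and to promote invasion and mesenchymal features later, and SMAD4 is among the genes that pancreatic carcinomas often lose.

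Each value is an FPKM, the fragments of a gene per kilobase of its transcript and relative to the library total, so levels can be compared between genes per length. The estimated depth was 8670000 to 9160000 reads per library. The SD of the log2 difference between replicates over the tested genes was 0.16 in Control and 0.21 in siSIRT1. SIRT1 was at 10.46 and 10.25 FPKM in Control, against 1.80 and 2.05 FPKM in siSIRT1, which is 18.6% of the Control mean (log2 fold change -1.96, limma adjusted p = 1.33e-05). Of the markers checked, the epithelial list summed to 3980 to 5070 FPKM, chiefly through KRT8, KRT18 and KRT19. The fibroblast and stellate list stayed at or below 0.14 FPKM, the endothelial list at or below 0.81 FPKM and the acinar and islet list at or below 0.15 FPKM. Of the 5 acinar and islet genes, only PRSS1 and CPA1 were listed, so no islet gene was read. PDGFRA of the fibroblast and stellate list and CD3E of the leukocyte list were also not listed. The leukocyte list summed to 67.5 and 69.3 FPKM in Control, against 43.6 and 47.8 FPKM in siSIRT1. Most of that sum was CD68, a lysosomal protein also made by other cells, while PTPRC, the defining leukocyte marker, was at 0.97 to 1.29 FPKM. CD14 was at 5.11 and 5.49 FPKM in Control, against 4.45 and 3.17 FPKM in siSIRT1, and did not pass (log2 fold change -0.40, limma adjusted p = 0.0613). CD68 fell (log2 fold change -0.59). Of the 6 epithelial markers, 2 passed, KRT18 (0.26) and KRT19 (0.25), but their limma adjusted p reached 0.249 and 0.165 under the other settings. Their log2 fold changes went down to 0.17 and 0.13 under those settings, and to 0.21 and 0.19 with 1 library left out. Among the markers that did not pass, EPCAM (0.52) and KRT8 (0.25) had the same sign, and CDH1 (-0.22) and KRT7 (-0.10) had the opposite sign. The part of these markers in the results that follow was not tested. In RNA from a whole culture, fewer cells that express a gene and less RNA per cell cannot be told apart.

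The oligonucleotide that the study lists under the name siSIRT1, and the places where its seed could pair with the members, are shown first because an siRNA can also lower transcripts that match only its seed. That these cells received this oligonucleotide is taken from its name alone. The listed strand was found at 1 place in the SIRT1 transcript, so it has the sense orientation. Its reverse complement is the guide, and capitals mark guide bases 2 to 8, the seed. Capitals in the sites mark the 7 bases of the 3′ UTR that pair with the seed.
siSIRT1 listed strand: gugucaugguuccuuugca
siSIRT1 guide: uGCAAAGGaaccaugacac
TGFB1 3′ UTR site: ctgcactattCCTTTGCccggcatcaa
TGFBR2 3′ UTR site: gccttctcaaCCTTTGCagaaattact
TGFBR3 3′ UTR site: ttcgatcagtCCTTTGCttttttaaaa
SMAD4 3′ UTR site: tattctaagcCCTTTGCcatcaatgat

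The TGFB1 site begins at base 253 of a 3′ UTR of 732 bases, and the TGFBR2 site at base 1668 of 2546 bases. TGFBR3 and SMAD4 also had 1 match each, SMAD2 had 5 in a canonical 3′ UTR of 32873 bases, and TGFB2, INHBA, TGFBR1, SMAD3 and TGFBI had none. Over the tested genes with a 3′ UTR, 1865 of 11932 (15.6%) held the match, searched on the transcript strand only. Their median log2 fold change was 0.06, against 0.08 for genes without it. Genes with the match had longer 3′ UTRs, with a median of 2979 bases against 1308 bases over all. The members with 1 match did not move one way: TGFBR2 fell, TGFB1 rose, and TGFBR3 and SMAD4 did not pass the test. Their sites were not alike. Among them, only the TGFBR2 site is followed by an a, which could also pair with guide base 1. The sites were not graded by this. TGFBI, with the largest absolute change among the members, held no match. Whether the seed acts on any of these genes was not tested.

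The promoters of TGFB1, TGFB2, TGFBR2 and TGFBI follow because TGFBR2 and TGFBI fell together, while the ligand genes differed, with TGFB1 past the test and TGFB2 not. The windows are the 250 bases before the start of the RefSeq transcript in GRCh38.p14, 5′ to 3′ on the strand of the gene. Capitals mark CAGAC or its reverse complement GTCTG, a form of the SMAD box, and GGGCGG or CCGCCC, the GC box bound by SP1 and its relatives, with both strands searched.
TGFB1 promoter, chr19:41353923-41354172, minus strand: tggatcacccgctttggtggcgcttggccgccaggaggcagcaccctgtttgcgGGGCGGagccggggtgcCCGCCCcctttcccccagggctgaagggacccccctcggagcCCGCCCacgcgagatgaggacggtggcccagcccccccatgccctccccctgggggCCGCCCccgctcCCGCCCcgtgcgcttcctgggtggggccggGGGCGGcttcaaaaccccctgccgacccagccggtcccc
TGFB2 promoter, chr1:218345086-218345335, plus strand: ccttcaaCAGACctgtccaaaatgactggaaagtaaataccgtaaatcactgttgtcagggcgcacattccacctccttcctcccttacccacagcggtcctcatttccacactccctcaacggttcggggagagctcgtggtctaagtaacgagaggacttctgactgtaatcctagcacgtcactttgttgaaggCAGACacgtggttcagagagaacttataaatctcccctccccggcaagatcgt
TGFBR2 promoter, chr3:30606351-30606600, plus strand: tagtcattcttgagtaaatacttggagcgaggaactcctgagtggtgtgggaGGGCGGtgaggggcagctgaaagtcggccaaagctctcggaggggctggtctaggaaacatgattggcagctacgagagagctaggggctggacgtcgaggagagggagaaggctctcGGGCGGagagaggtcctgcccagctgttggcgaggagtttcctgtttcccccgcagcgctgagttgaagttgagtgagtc
TGFBI promoter, chr5:136028738-136028987, plus strand: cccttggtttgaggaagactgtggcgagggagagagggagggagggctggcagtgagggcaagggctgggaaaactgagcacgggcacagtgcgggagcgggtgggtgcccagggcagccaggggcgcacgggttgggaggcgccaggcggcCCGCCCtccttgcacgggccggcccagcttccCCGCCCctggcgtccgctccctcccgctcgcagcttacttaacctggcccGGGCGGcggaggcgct

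The windows differed in base composition. The TGFB1 window was 76.8% GC with 6 GC boxes and no CAGAC. The TGFB2 window was 50.4% GC with 2 CAGAC and no GC box. Among the genes that fell, the TGFBR2 window was 58.4% GC with 2 GC boxes, and the TGFBI window was 72.8% GC with 3 GC boxes, and neither held CAGAC. Of the 6 other members, TGFBR1 had 1 CAGAC, while SMAD3 had 4 GC boxes, SMAD2 3, and SMAD4 and TGFBR3 2 each. INHBA had neither motif. Over 9984 promoters of tested genes, 35.7% held a CAGAC and 68.4% a GC box. Those promoters used the first listed start of each gene, whereas the members' windows used the start nearest the 5′ end of the canonical transcript. These matches describe the letters of the windows and are not measured binding sites.

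Of the 9 members with a mean of at least 1 FPKM, which were the ones tested, 3 passed an adjusted p of 0.05 in limma: TGFB1 was higher and TGFBR2 and TGFBI were lower in siSIRT1. INHBA was below that level and was not tested. Over all 12191 tested genes, 37.1% passed, 24.0% higher and 13.1% lower, so the members' 33.3% was close to the background. The groups did not overlap in 6 of the 9 members, against 69.0% of all tested genes. The median log2 fold change was -0.02 over the 9 members and 0.07 over all tested genes. Scaling changed the split of all calls, which was 2930 higher and 1591 lower as deposited and 2023 higher and 2053 lower after median-of-ratios scaling. No tested member changed sign under median-of-ratios or quantile scaling.

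**Figure D1:**
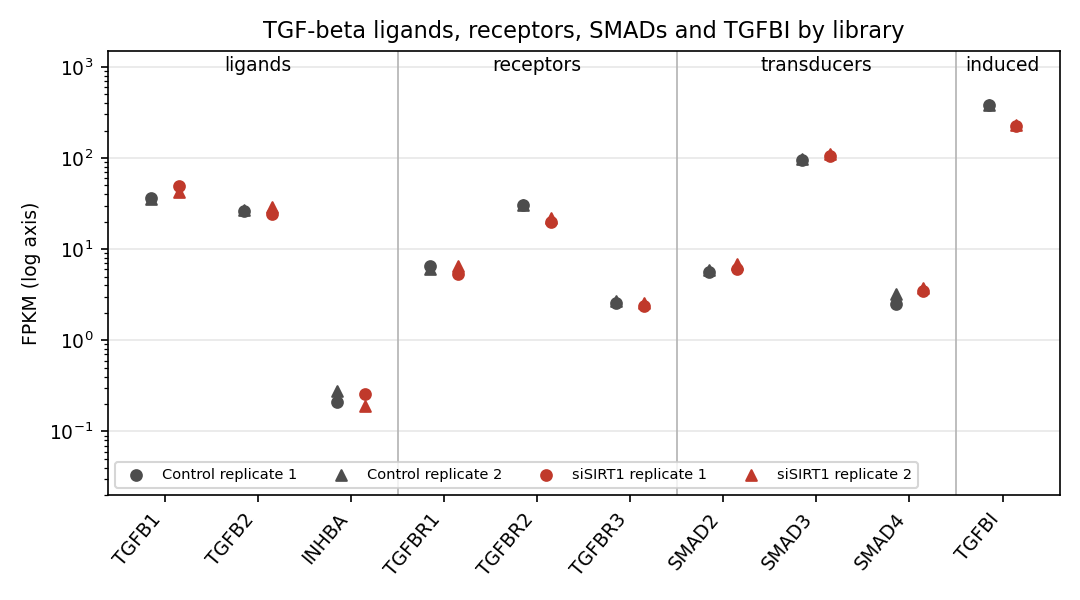
FPKM of the 10 members (log axis) in each Control library (grey) and siSIRT1 library (red), with circles for replicate 1 and triangles for replicate 2, grouped by role. TGFBI and TGFBR2 sit lower in both siSIRT1 libraries and TGFB1 sits higher, while TGFB2, TGFBR1, TGFBR3 and INHBA overlap between the groups.

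The levels of the members covered a wide range in Control. TGFBI had the highest mean, 380 FPKM, which placed it at the 99.2 percentile of the listed genes. SMAD3 followed at 96.5 FPKM, then TGFB1 at 36.1, TGFBR2 at 30.2 and TGFB2 at 26.6 FPKM. The remaining receptor and transducer genes were lower, with TGFBR1 at 6.29, SMAD2 at 5.70, SMAD4 at 2.87 and TGFBR3 at 2.65 FPKM, and INHBA was last at 0.245 FPKM. Neighbours in this order did not overlap in Control, except SMAD4 and TGFBR3. In siSIRT1, TGFB2 stood above TGFBR2 and SMAD2 above TGFBR1.

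Among the ligands, TGFB1 rose, TGFB2 did not pass the test and INHBA was barely detected. TGFB1 (Entrez gene 7040, GRCh37 chromosome 19, 41807492 to 41859827, minus strand, 7 exons) encodes the founding TGF-beta ligand. It was at 36.49 and 35.79 FPKM in Control, against 49.04 and 42.45 FPKM in siSIRT1. Both siSIRT1 libraries were above both Control libraries, and replicate 1 was the higher of the siSIRT1 pair. The group means were 36.1 ± 0.495 and 45.7 ± 4.66 FPKM (± SD, n = 2 each), and siSIRT1 was thus at 127% of Control. On the log2(FPKM + 1) scale the fold change was 0.33, with SE 0.08 and a 95% interval of 0.15 to 0.51 (limma adjusted p = 0.0115). The call did not hold everywhere. Median-of-ratios scaling gave 0.24 (limma adjusted p = 0.0597), and testing all genes without a filter gave an adjusted p of 0.0576 with limma. Without Control replicate 1 or Control replicate 2, the limma adjusted p was 0.0519 or 0.0718, with log2 fold changes of 0.34 and 0.31.

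TGFB2 (Entrez gene 7042, GRCh37 chromosome 1, 218518678 to 218617961, plus strand, 7 exons) encodes a ligand that depends on the co-receptor betaglycan for efficient binding. Its level was 26.42 and 26.88 FPKM in Control, against 23.99 and 28.84 FPKM in siSIRT1. The siSIRT1 values lay on either side of the Control pair, and the replicates of siSIRT1 differed more than the group means. TGFB2 had a log2 fold change of -0.02 with a 95% interval of -0.23 to 0.19 (limma adjusted p = 0.897). Without siSIRT1 replicate 1 it was 0.11. The ratio of TGFB2 to TGFB1 in the same library was 0.724 and 0.751 in Control, against 0.489 and 0.679 in siSIRT1, lower in both siSIRT1 libraries.

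INHBA (Entrez gene 3624, GRCh37 chromosome 7, 41706766 to 41745432, minus strand, 3 exons) encodes the subunit of activin A, a ligand that signals through SMAD2 and SMAD3 by its own receptors. The tables list it at 0.21 and 0.28 FPKM in Control, against 0.26 and 0.19 FPKM in siSIRT1. These values stand for about 11, 15, 13 and 10 reads, and the groups overlapped. With all genes tested and no filter, its log2 fold change was -0.02 (limma adjusted p = 0.815), and a change in a gene this low was not detectable at this depth unless large.

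The receptors differed from each other. TGFBR2 (Entrez gene 7048, GRCh37 chromosome 3, 30648093 to 30735634, plus strand, 7 exons) encodes the type II receptor, the kinase that binds the ligand and activates the type I receptor. It stood at 30.31 and 30.14 FPKM in Control, against 19.77 and 21.77 FPKM in siSIRT1. Both siSIRT1 libraries lay well below both Control libraries, and the gap between the groups was several times the gap within them. The group means were 30.2 ± 0.12 and 20.8 ± 1.41 FPKM (± SD, n = 2 each), leaving 68.7% of the Control level. Its log2 fold change was -0.52, with SE 0.07 and a 95% interval of -0.69 to -0.35 (limma adjusted p = 0.000983). TGFBR2 passed under every alternative run, leaving out each library included.

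TGFBR1 (Entrez gene 7046, GRCh37 chromosome 9, 101866320 to 101916474, plus strand, 9 exons) encodes the type I receptor kinase that phosphorylates SMAD2 and SMAD3. Its values were 6.48 and 6.11 FPKM in Control, against 5.37 and 6.59 FPKM in siSIRT1. The lowest and the highest of the 4 values were both in siSIRT1, so the groups overlapped. A log2 fold change of -0.07 was fitted with a 95% interval of -0.34 to 0.21 (limma adjusted p = 0.692), and it was 0.06 without siSIRT1 replicate 1. Within a library, the ratio of TGFBR2 to TGFBR1 was 4.68 and 4.93 in Control, against 3.68 and 3.30 in siSIRT1. The type II transcript thus stayed the more abundant of the pair per length in all 4 libraries, by a smaller margin in siSIRT1.

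TGFBR3 (Entrez gene 7049, GRCh37 chromosome 1, 92145900 to 92371892, minus strand, 17 exons) encodes betaglycan, the co-receptor that presents the ligand to the type II receptor. It was low throughout, at 2.58 and 2.71 FPKM in Control, against 2.36 and 2.58 FPKM in siSIRT1. The higher siSIRT1 value equalled the lower Control value. The log2 fold change was -0.07 with a 95% interval of -0.36 to 0.21 (limma adjusted p = 0.691). Set against its ligand, TGFBR2 over TGFB1 was 0.831 and 0.842 in Control, against 0.403 and 0.513 in siSIRT1, since the receptor transcript fell and the ligand transcript rose.

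**Figure D2:**
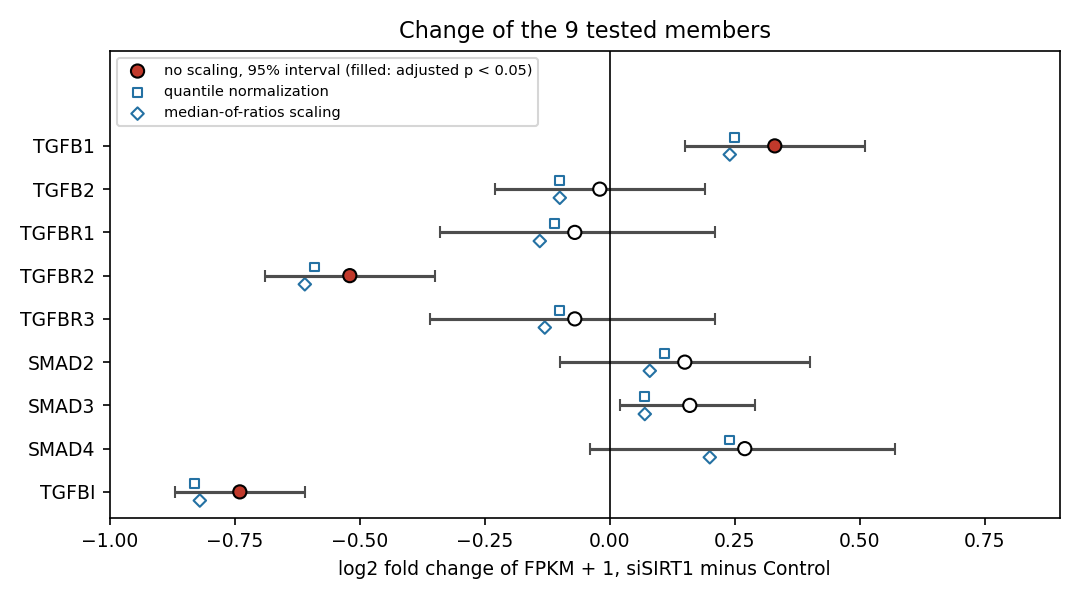
Difference of log2(FPKM + 1), siSIRT1 minus Control, for the 9 tested members, with 95% intervals as bars and filled circles where the limma adjusted p was under 0.05. TGFBI (-0.74) and TGFBR2 (-0.52) lie left of zero and TGFB1 (0.33) right of it, and the open blue symbols give the same differences after quantile normalization and median-of-ratios scaling.

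The transducers did not pass the test. Each was higher in both siSIRT1 libraries than in either Control library, and 69.0% of all tested genes likewise had groups that did not overlap. SMAD3 (Entrez gene 4088, GRCh37 chromosome 15, 67356101 to 67487511, plus strand, 9 exons) binds DNA and carries much of the transcriptional response to TGF-beta. It was at 95.66 and 97.34 FPKM in Control, against 105.26 and 110.04 FPKM in siSIRT1, a step of the mean to 112% of Control. The log2 fold change was 0.16 with a 95% interval of 0.02 to 0.29 (limma adjusted p = 0.0638). It was 0.07 after quantile or median-of-ratios scaling. Without siSIRT1 replicate 1 it was 0.19, with a limma adjusted p of 0.033.

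SMAD2 (Entrez gene 4087, GRCh37 chromosome 18, 45335328 to 45457517, minus strand, 11 exons) encodes the other receptor-regulated SMAD of this branch. Its values were 5.55 and 5.85 FPKM in Control, against 6.08 and 6.82 FPKM in siSIRT1. The groups were separate, but the gap between them was smaller than the difference within siSIRT1. SMAD2 had a log2 fold change of 0.15 with a 95% interval of -0.10 to 0.40 (limma adjusted p = 0.314). SMAD3 stayed far above SMAD2, with a ratio of 17.2 and 16.6 in Control, against 17.3 and 16.1 in siSIRT1, which overlapped.

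SMAD4 (Entrez gene 4089, GRCh37 chromosome 18, 48554898 to 48611415, plus strand, 12 exons) encodes the common partner that SMAD2 and SMAD3 need in the nucleus. It was detected in all libraries, at 2.52 and 3.21 FPKM in Control, against 3.50 and 3.76 FPKM in siSIRT1. The Control values differed from each other by more than the siSIRT1 values did. SMAD4 had a log2 fold change of 0.27 with a 95% interval of -0.04 to 0.57 (limma adjusted p = 0.158), so that neither no change nor a rise as large as that of TGFB1 lay outside the interval. The ratio of SMAD3 to SMAD4 was 38.0 and 30.3 in Control, against 30.1 and 29.3 in siSIRT1.

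TGFBI (Entrez gene 7045, GRCh37 chromosome 5, 135364677 to 135399507, plus strand, 17 exons) encodes a secreted matrix protein that binds collagens and integrins. It was the most abundant member and changed most. It stood at 382.88 and 376.84 FPKM in Control, against 226.29 and 229.15 FPKM in siSIRT1. The replicates of each group lay close together and the groups were far apart. The group means were 380 ± 4.27 and 228 ± 2.02 FPKM (± SD, n = 2 each), with 59.9% of the Control level left. Its log2 fold change was -0.74, with SE 0.06 and a 95% interval of -0.87 to -0.61 (limma adjusted p = 5.24e-05), and the gene passed under every alternative run. TGFBI moved in the opposite direction to TGFB1 and in the same direction as TGFBR2. The present values are of transcripts, and neither secreted ligand nor SMAD phosphorylation was measured in these libraries.

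The other genes of the pathway were described by 4 lists of 75 genes in all. In the tables, 73 were listed and 54 reached a mean of 1 FPKM. Of these 54, 32 (59.3%) passed the test, 20 higher and 12 lower, beside 37.1% of all tested genes. The median log2 fold change was 0.12, against 0.07 over all tested genes. The lists differed: 72.7% of the tested ligand and release genes, 18.2% of the receptors and SMAD partners, 61.5% of the inhibitors and 73.7% of the induced genes passed. The lists were written with earlier results of these data known, and whether that choice raised these shares was not tested.

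**Figure D3:**
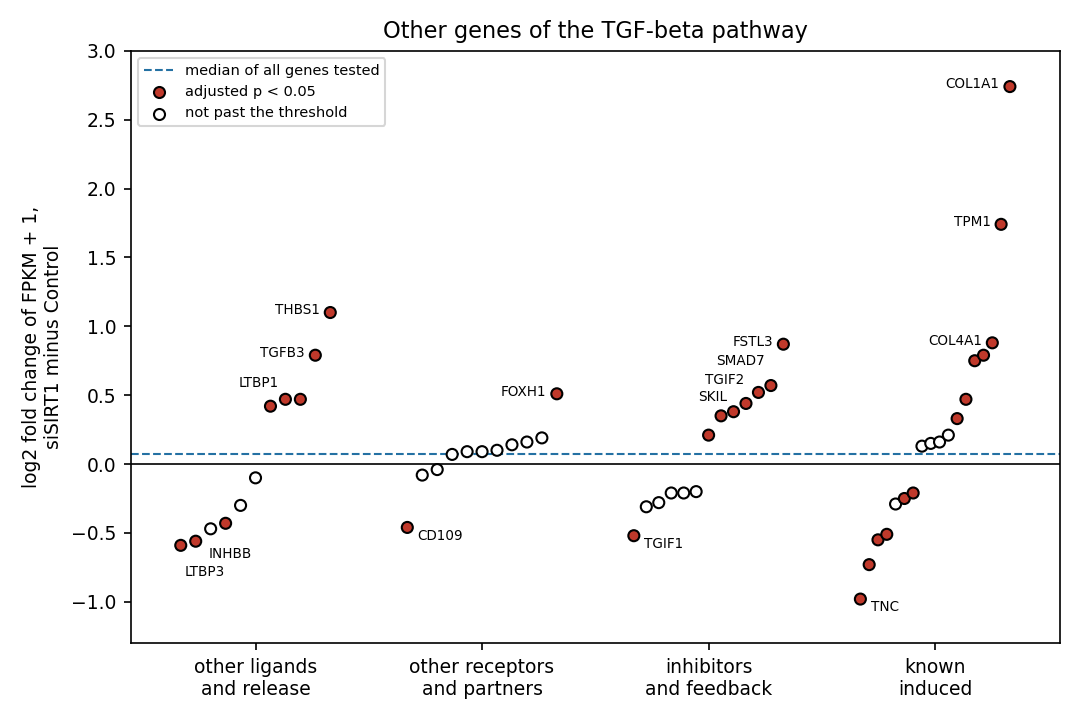
Difference of log2(FPKM + 1), siSIRT1 minus Control, for 53 of the 54 tested genes of the 4 pathway lists, filled where the limma adjusted p was under 0.05, with the median of all genes tested as a dashed line. Up to 5 called genes with the largest absolute change are named in each list, and calls lie on both sides of zero in every list.

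Of 18 other ligand and release genes, 11 entered the test and 8 passed it, 5 higher and 3 lower, with a median log2 fold change of -0.10. THBS1, which encodes thrombospondin, a matrix protein able to activate latent TGF-beta, was at 4.60 and 4.37 FPKM in Control, against 9.16 and 12.51 FPKM in siSIRT1. Its log2 fold change was 1.10 (limma adjusted p = 0.000595). TGFB3, the remaining TGF-beta ligand gene, was at 0.63 and 0.66 FPKM in Control, against 2.13 and 1.60 FPKM in siSIRT1. It reached the mean of 1 FPKM only through the siSIRT1 libraries. Its log2 fold change was 0.79 (limma adjusted p = 0.0039), and 1.39 with a pseudocount of 0.1. Even so, TGFB3 stayed far below TGFB1 and TGFB2 in every library.

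The family of latent TGF-beta binding proteins includes members that tether the latent ligand to the matrix. Of its 4 genes 1 rose, 2 fell and 1 did not pass. LTBP3 fell from 87.55 and 86.32 FPKM to 58.64 and 55.94 FPKM (log2 fold change -0.59, limma adjusted p = 0.000175). LTBP1 rose from 14.81 and 14.26 FPKM to 19.78 and 21.23 FPKM (log2 fold change 0.47, limma adjusted p = 0.00221). The ratio of LTBP1 to LTBP3 in a library was therefore 0.169 and 0.165 in Control, against 0.337 and 0.38 in siSIRT1, with LTBP3 the higher of the pair throughout. LTBP2 and LTBP4, named after their values were seen, had log2 fold changes of -0.43 and -0.10 (limma adjusted p = 0.00422 and 0.274). INHBB, which encodes the subunit of activin B, fell from 20.04 and 19.68 FPKM to 12.69 and 13.64 FPKM (log2 fold change -0.56, limma adjusted p = 0.000969), and unlike INHBA it was well detected. FURIN, named here after its values were seen, encodes the protease that cleaves the TGF-beta precursor and was at 64.39 and 65.07 FPKM in Control, against 92.52 and 87.26 FPKM in siSIRT1 (log2 fold change 0.47, limma adjusted p = 0.000577). LEFTY1, a secreted antagonist of the nodal branch, was 1 of 7 genes of the ligand and release list below the filter. It was at 0 and 0.07 FPKM in Control, against 0.82 and 0.58 FPKM in siSIRT1. LRRC32 went the other way, at 0.22 and 0.14 FPKM in Control, against 0 and 0.06 FPKM in siSIRT1. In MSTN, NODAL, LEFTY2, ITGB6 and ITGB8 the groups overlapped.

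Of 14 other receptors and SMAD partners, 11 were tested and 2 passed, 1 in each direction, with a median log2 fold change of 0.09. FOXH1, a DNA-binding partner of SMAD2 in the activin and nodal branch, was at 4.84 FPKM in both Control libraries, against 7.87 and 6.78 FPKM in siSIRT1 (log2 fold change 0.51, limma adjusted p = 0.00817). CD109, a membrane protein that binds TGF-beta and restrains its receptors, was at 29.51 and 31.14 FPKM in Control, against 18.61 and 25.28 FPKM in siSIRT1. Its siSIRT1 values were both lower but lay apart from each other. The log2 fold change was -0.46 (limma adjusted p = 0.0182), and it was -0.25 without siSIRT1 replicate 1. CD109 no longer passed without Control replicate 2 (limma adjusted p = 0.0626), without the filter (0.108) or without the mean-variance trend (0.0572).

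Of 15 inhibitors and feedback genes, 13 entered the test and 8 passed it, 7 higher and 1 lower, with a median log2 fold change of 0.21. After quantile or median-of-ratios scaling the split was 6 higher and 3 lower. FSTL3, a secreted binder of activins, was at 24.42 and 22.41 FPKM in Control, against 44.27 and 42.82 FPKM in siSIRT1. That was 186% of Control (log2 fold change 0.87, limma adjusted p = 6.68e-05), and the siSIRT1 values were close together. SMAD7, the inhibitory SMAD that is induced by the pathway and directs its receptors to degradation, was at 4.85 and 5.71 FPKM in Control, against 8.31 and 8.25 FPKM in siSIRT1 (log2 fold change 0.57, limma adjusted p = 0.0046). The SMAD corepressor genes TGIF1 and TGIF2 moved apart. TGIF1 fell from 76.42 and 70.18 FPKM to 52.31 and 49.48 FPKM (log2 fold change -0.52, limma adjusted p = 0.000627). TGIF2 rose from 6.72 and 8.19 FPKM to 11.43 and 10.80 FPKM (log2 fold change 0.52, limma adjusted p = 0.0066), and did not pass without Control replicate 1 (limma adjusted p = 0.0656). SKIL, which encodes the corepressor SnoN, was at 6.62 and 7.30 FPKM in Control, against 8.61 and 11.19 FPKM in siSIRT1 (log2 fold change 0.44, limma adjusted p = 0.0261). The SKIL call was lost without Control replicate 1 (limma adjusted p = 0.127), without siSIRT1 replicate 2 (0.101, with a log2 fold change of 0.27) and without the filter (0.104). Without Control replicate 1, 4 of the list passed.

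Of 28 genes known as induced by TGF-beta besides TGFBI, 26 were listed and 19 tested. Of these, 14 passed, 7 higher and 7 lower, with a median log2 fold change of 0.15, so the list moved in both directions. TNC, the matrix protein tenascin-C, fell from 2.92 and 3.42 FPKM to 1.03 and 1.18 FPKM (log2 fold change -0.98, limma adjusted p = 0.000857). Like TGFBI, TNC was lower in both siSIRT1 libraries with no overlap.

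The 3 named genes of this list that rose encode collagens and a tropomyosin. COL1A1, which encodes the main chain of type I collagen, was at 18.78 and 18.17 FPKM in Control, against 131.34 and 126.34 FPKM in siSIRT1. That was 697% of Control (log2 fold change 2.74, limma adjusted p = 1.08e-07), the largest change in the 4 lists. Its partner chain gene COL1A2 was listed at 0.02 and 0 FPKM in Control, against 0.04 and 0.06 FPKM in siSIRT1, below the filter. TPM1, which encodes a tropomyosin of actin filaments, rose from 54.76 and 53.53 FPKM to 190.32 and 176.16 FPKM (log2 fold change 1.74, limma adjusted p = 1.02e-06). COL4A1, a collagen of basement membranes, rose from 1.02 and 0.99 FPKM to 2.57 and 2.82 FPKM (log2 fold change 0.88, limma adjusted p = 0.00123), and the log2 fold change was 1.34 with a pseudocount of 0.1.

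The other 7 listed induced genes, several of them often read as mesenchymal markers, were too low to test. FN1 was at 0.27 and 0.24 FPKM in Control, against 0.44 and 0.50 FPKM in siSIRT1. ACTA2 was at 0.34 to 0.72 FPKM and LOX at 0.24 to 0.47 FPKM over the 4 libraries, both with overlap, and VCAN and POSTN did not exceed 0.04 FPKM. SNAI2, which encodes a repressor of epithelial genes, was at 0.17 FPKM in both Control libraries, against 0.58 and 1.01 FPKM in siSIRT1. SNAI1, its relative, did not pass the test, at 8.88 and 6.81 FPKM in Control, against 6.38 and 5.99 FPKM in siSIRT1 (log2 fold change -0.29, limma adjusted p = 0.114). SNAI1 was named after its values were seen.

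**Figure D4:**
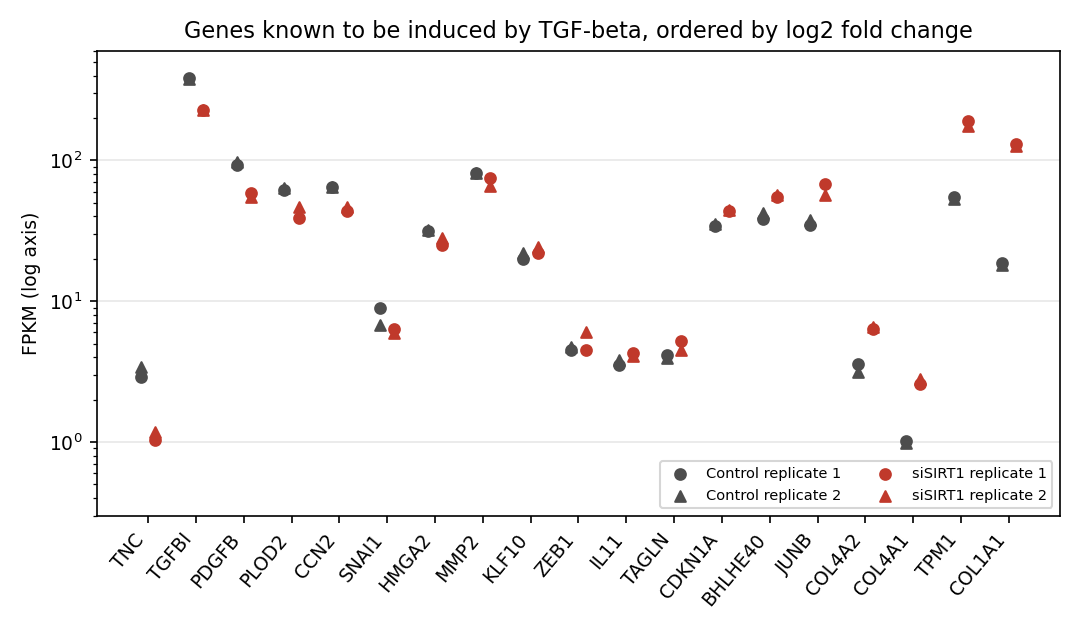
FPKM (log axis) in each library of TGFBI and 18 of the 19 tested genes known as induced by TGF-beta, ordered by log2 fold change from TNC (-0.98) to COL1A1 (2.74), with Control in grey, siSIRT1 in red, circles for replicate 1 and triangles for replicate 2. Both siSIRT1 libraries lie below Control at the left end and above it at the right end.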

How the data were processed

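RNA from PANC-1 cells was sequenced with the provider's standard protocol. The authors deposited 1 table per library with gene FPKM values rounded to 2 decimals. FPKM is scaled by transcript length and library total only. The submitters' processing notes name HISAT, Bowtie2 and RSEM, and their versions, the genome build and strand handling are not given in the sources used here. Without strand, reads of overlapping antisense genes could not be told apart. Genes were matched by Entrez identifier to current RefSeq symbols (16846 of 16878). The 12191 genes whose mean FPKM over all libraries reached 1 were tested with limma 3.58.1 (R 4.3.3; lmFit, eBayes with trend) on log2(FPKM + 1), siSIRT1 against Control, two-sided, without a block. This scale understates changes of weakly expressed genes. P-values were Benjamini-Hochberg adjusted over all tested genes, with a threshold of 0.05. The fit was tested on simulated data with far fewer changed genes than were called here, so that test does not cover data with this many changes.

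Members and lists were chosen with earlier results of these data known. The genes named are all members, SIRT1, and up to 5 called genes with the largest absolute log2 fold change per list. Genes below the filter are named for the ligand and release list and the induced list, and not for the other lists. For 1 gene of the induced list, which is included in that list's counts, the values are not reported here. Any other gene is marked as chosen after its values were seen. Alternatives were a pseudocount of 0.1, no filter, quantile normalization, median-of-ratios scaling, eBayes without trend, each library left out in turn, a replicate block, and a fold change above 1.2 with unadjusted p under 0.001.

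Coordinates, lengths and 3′ UTRs come from canonical transcripts of GENCODE 44 on GRCh37, and promoters from RefSeq on GRCh38.p14. Depth was estimated from steps of 1 read in low FPKM values of 113 to 130 single-exon genes per library, with a length offset of 80 bases. It is approximate, and precision from it covers counting error only.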

Additional observations from a re-analysis of the deposited data

How the results depend on the processing

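TGFBR2, TGFBI and SIRT1 kept their direction and their side of the threshold under all alternatives run. The 3 members called became 2 to 4 across the alternatives, since TGFB1 was lost under 5 of them and SMAD3 passed under 2 of them. The number of all genes called, 4521, was 2207 at a fold change above 1.2 with unadjusted p under 0.001, and 2691 to 4608 when 1 library was left out (2744 without Control replicate 1 and 2691 without Control replicate 2). The 2 calls among other receptors and SMAD partners became 1 without the filter and 1 with eBayes without trend, and 1 to 3 when 1 library was left out (1 without Control replicate 2). The 8 calls among inhibitors and feedback genes became 4 to 7 when 1 library was left out (4 without Control replicate 1). The replicate numbers of the labels were also entered as a replicate block, although same-numbered libraries deviated together with a correlation of only 0.123 over 2 numbers, which does not show that they are pairs. With the block, 5393 genes were called, 3485 higher and 1908 lower, and 4 members, which added SMAD3 (limma adjusted p = 0.0241). With 2 libraries per group, low genes such as INHBA allow a large change to go undetected.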
